A study of Mus musculus with 27 samples.

Results

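The IL-6 family was followed in hepatic stellate cells (HSCs) through 10 of its genes, namely the ligands Il6, Lif and Il11, the receptor chains Il6ra, Il11ra1, Osmr, Lifr and Il6st, the transcription factor Stat3 and its inhibitor Socs3. The genes were listed by name, with no threshold on a measured value. They were chosen with earlier results of these data known, so counts among them are not independent of the data. All 10 were found among the 53379 genes counted and passed the filter that left 18758 genes for testing. HSCs, mesenchymal cells of the space between hepatocytes and sinusoids, store retinoid. Here they were sorted from male Balb/c mice by the ultraviolet fluorescence of retinoid and their RNA was sequenced without culture. Healthy mice of 10 to 12 weeks received no injection (n = 4). Mice of the same age range received 1 intraperitoneal injection of the hepatocyte toxin carbon tetrachloride (CCl4), at 0.5 µL per g of body weight in mineral oil, and were sampled after 24 h (acute 24 h, n = 3), 72 h (acute 72 h, n = 4) or 7 d (acute 7 d, n = 4). Mice of 8 to 10 weeks at the start received 8 such injections over 4 weeks and were sampled 24 h, 72 h or 14 d after the last one (chronic 24 h, chronic 72 h and chronic 14 d, n = 4 each). The range of age at sampling thus differed from that of the healthy mice, and age and repeated injection cannot be told apart. The healthy mice got neither CCl4 nor oil, so the effects of toxin and vehicle cannot be told apart.

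Cytokines of this family share the signal chain gp130, encoded by Il6st. IL-6 and IL-11 bind the private chains IL-6R (Il6ra) and IL-11R (Il11ra1) first and then pair gp130 with itself, whereas LIF and oncostatin M pair gp130 with LIFR or OSMR. Receptor-bound JAK kinases then phosphorylate STAT3, which enters the nucleus and switches on targets that include its own inhibitor Socs3. In the liver the family is known for the acute phase response of hepatocytes, and HSCs are known as both a source and a target of its members.

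Levels are given in CPM, counts scaled to a common library total with TMM as a correction for library composition, or as CPM per kb of exon where different genes are compared. Differences are log2 fold changes from edgeR's quasi-likelihood test over all genes and 27 libraries, with the standard error (SE) and a p adjusted by the Benjamini-Hochberg method. Higher or lower calls needed more than a 2-fold change together with an adjusted p below 0.05. The study's methods describe each repeat as an individual experiment.

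Libraries held 6314801 to 13052838 counts. The 8 libraries with the fewest, up to 7580709 where all others had at least 10792560, were chronic 24 h replicates 1 and 2, chronic 72 h replicates 1 and 2 and all 4 of chronic 14 d, and none of the healthy or acute libraries was among them. All 12 HSC markers examined, such as Lrat and Reln, were counted in every group, with a summed level between 20500 and 53500 CPM. Against healthy HSCs 3 of them were called lower at acute 24 h, against 12.5% of all genes. At acute 72 h 6 were lower (4.33%), and at acute 7 d 6 (5.64%). In the chronic course 7 were lower at 24 h (8.11%), 6 at 72 h (4.20%) and 2 at 14 d (1.17%). Higher calls were 1 at chronic 24 h (11.2%), 1 at chronic 72 h (7.88%) and none elsewhere. The summed level of 12 macrophage markers was 156 to 664 CPM in healthy and 4190 to 10800 CPM in acute 7 d libraries, and that of 12 hepatocyte markers was 66.5 to 354 CPM at acute 24 h and 2280 to 9820 CPM at chronic 14 d. In such bulk libraries fewer cells of a type and less RNA per cell cannot be told apart.

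The genes lay far apart in level. In healthy HSCs Socs3 had 1220 CPM per kb, the rank of 34 among 18741 genes with a known exon length. Il6st followed with 79.9 CPM per kb, Lifr with 36.4, Il11ra1 with 21.3 and Stat3 with 7.73. Osmr, at 3.62 CPM per kb, stood near the middle of all genes (percentile 52.3). The remaining 4 genes were lower, and the 3 ligands ranged from 1.65 CPM per kb for Il6 through 0.271 for Lif to 0.112 for Il11. As sorted, healthy HSCs thus held RNA of the shared receptor chain and of the inhibitor at high levels and very little RNA of the ligands. Socs3 is also induced when cells are handled, and the part of handling in its level was not tested.

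The promoter sequences of the ligands and of Socs3 are shown because these genes changed most between groups or stood highest. RefSeq (GRCm38.p6) gives 13 promoters for the 10 genes. The 250 bases before the start were searched on both strands for the STAT motif TTCNNNGAA, the AP-1 motif TGAGTCA or TGACTCA and the kB motif (GGGA, then any base, then TTTCC), which do not share letters in any promoter below. The motifs were chosen after the promoters had been read, and matches stand in capitals. Lines run 5′ to 3′ on the strand of the gene, at chr5:30012864-30013113 (plus strand) for Il6, chr11:4257318-4257567 (plus) for Lif, chr7:4778142-4778391 (minus) for the inner of the Il11 promoters and chr11:117969367-117969616 (minus) for Socs3.
Il6: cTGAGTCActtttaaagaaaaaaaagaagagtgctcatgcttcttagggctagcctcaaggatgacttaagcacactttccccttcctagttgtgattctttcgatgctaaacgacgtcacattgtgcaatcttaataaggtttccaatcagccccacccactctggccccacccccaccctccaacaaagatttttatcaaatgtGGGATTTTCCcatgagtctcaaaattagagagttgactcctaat
Lif: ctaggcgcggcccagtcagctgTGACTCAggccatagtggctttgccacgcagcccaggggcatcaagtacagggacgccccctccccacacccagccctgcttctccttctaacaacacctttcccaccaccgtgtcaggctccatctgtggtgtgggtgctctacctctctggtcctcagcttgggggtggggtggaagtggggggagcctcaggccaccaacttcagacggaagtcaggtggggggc
Il11: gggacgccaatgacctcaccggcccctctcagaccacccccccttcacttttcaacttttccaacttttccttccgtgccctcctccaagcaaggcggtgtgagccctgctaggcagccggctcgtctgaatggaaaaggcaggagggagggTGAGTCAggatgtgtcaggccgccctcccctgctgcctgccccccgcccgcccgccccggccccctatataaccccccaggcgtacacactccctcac
Socs3: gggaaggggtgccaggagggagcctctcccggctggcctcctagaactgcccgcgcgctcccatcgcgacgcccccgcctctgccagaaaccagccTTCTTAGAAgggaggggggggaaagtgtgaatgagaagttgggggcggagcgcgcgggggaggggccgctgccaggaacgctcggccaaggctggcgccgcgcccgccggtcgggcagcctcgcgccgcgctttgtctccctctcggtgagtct

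The STAT motif was found in 1 of the 13 promoters, that of Socs3, as TTCTTAGAA with its first base 154 bases before the start. It occurs in 7.02% of all 32851 RefSeq promoter windows. The AP-1 motif, found in 4.46% of all windows, was in 3 of the 13, at 249 bases before the start in Il6, 228 in Lif and 98 in Il11. The kB motif, found in 0.356% of windows, was in 1, at 44 bases before the start of Il6 as GGGATTTTCC. A match describes the letters and does not show that a factor binds there.

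The first question was which genes of the family changed after 1 or repeated CCl4 injections. After 1 injection 4 of 10 were called higher at 24 h, against 9.41% of all genes tested, and 0 lower, against 12.5%. At 72 h again 4 were called higher (8.23% of all genes) and 0 lower (4.33%), and at 7 d 2 were higher (9.23%) and 0 lower (5.64%). The median log2 fold change of the 10 genes was 0.66, 0.50 and 0.44 at these times, and that of all genes was -0.12, 0.00 and 0.01. The calls held the ligands Il11 and Lif at 24 and 72 h and the receptor chains Il6ra and Osmr at all 3 times.

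After repeated injections 5 of 10 were called higher at 24 h, against 11.2% of all genes, and 1, Socs3, was lower, against 8.11%. At 72 h 4 were higher (7.88% of all genes) and 0 lower (4.20%). At 14 d only Il6ra was called higher among the 10 (4.55% of all genes) and 0 were lower (1.17%). Medians of the 10 were 1.42, 1.18 and 0.53 on the log2 scale, and those of all genes -0.03, 0.00 and -0.03. All 6 of these comparisons share the same 4 healthy libraries.

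**Figure D1:**
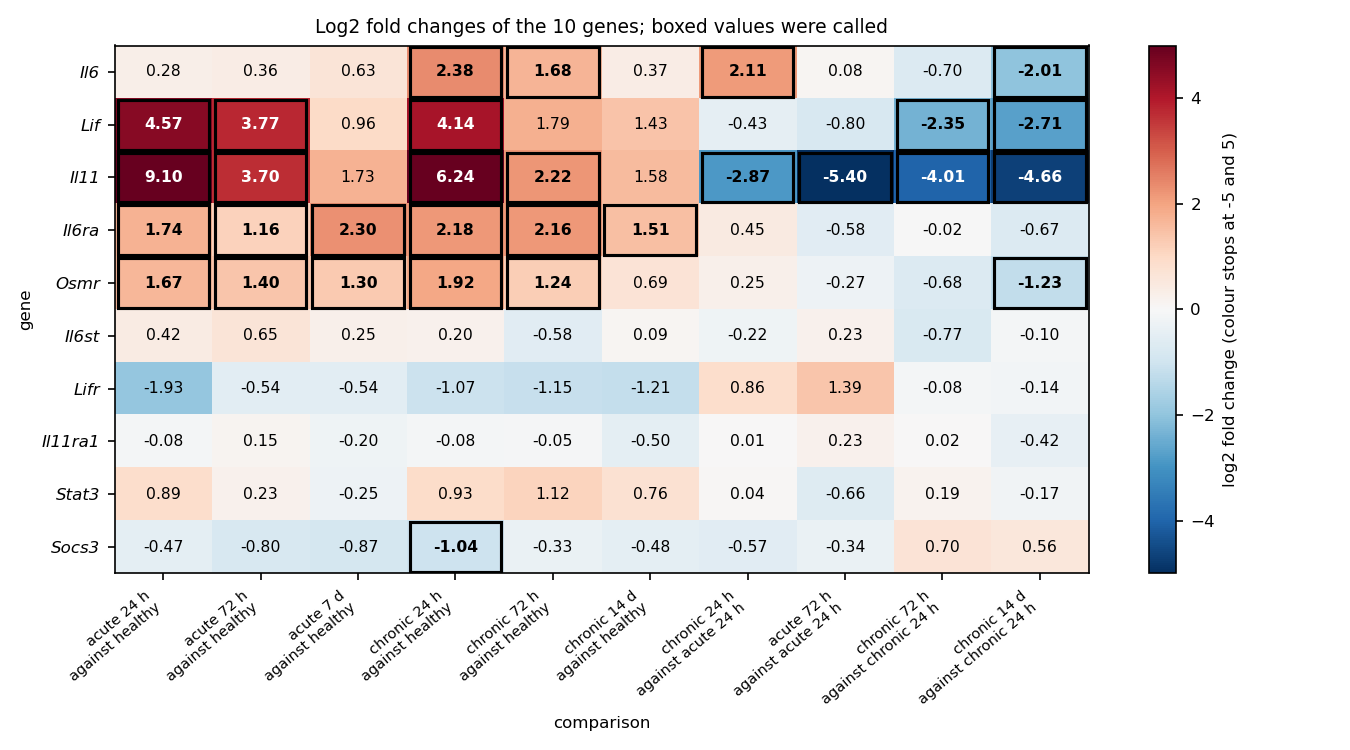
Log2 fold changes of the 10 genes (vertical axis, ordered by role) in 10 comparisons between groups (horizontal axis), with colour from blue (lower) to red (higher). Boxed values were called, and Il11 at acute 24 h against healthy, 9.10, is the highest value, while the lines of Il6st, Lifr, Il11ra1 and Stat3 hold no box.

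Il11 encodes interleukin 11, a cytokine linked to the activation of fibroblasts (ENSMUSG00000004371, chr7:4772373-4782859, minus strand). It was nearly absent from healthy HSCs, with 0.543, 0.39, 0 and 0 CPM, which stand for 6, 4, 0 and 0 counts. At acute 24 h it reached 132, 131 and 128 CPM, the narrowest group of the gene in relative terms. The later acute levels were 3.01, 5.45, 1.95 and 1.93 CPM at 72 h and 1.05, 0.492, 0.643 and 0.919 CPM at 7 d. The peak was thus over within 72 h of the injection, and no library of any other group came near it.

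After repeated injections Il11 measured 8.68, 27.7, 12.5 and 22.6 CPM at 24 h, 0.799, 0.714, 1.79 and 0.939 CPM at 72 h and 0.944, 0.788, 0.481 and 0.587 CPM at 14 d. Chronic 24 h libraries therefore lay between those of acute 24 h and all the rest, without overlap. Against healthy HSCs the log2 fold change was 9.10 at acute 24 h (SE 0.64, adjusted p = 9.13e-10), a 549-fold difference with a 95% interval of 221 to 1370. It was 6.24 at chronic 24 h (SE 0.59, adjusted p = 4.14e-08) and 3.70 at acute 72 h (SE 0.60, adjusted p = 9.27e-05). These values rest on 10 healthy counts in all, and without healthy replicate 1 they were 9.95, 7.08 and 4.55.

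Compared directly, Il11 was lower at chronic than at acute 24 h, with -2.87 on the log2 scale (SE 0.45, adjusted p = 7.8e-05). It fell by 5.40 from acute 24 h to 72 h (SE 0.51, adjusted p = 1.25e-07) and by 4.01 from chronic 24 h to 72 h (SE 0.50, adjusted p = 9.28e-06) on the log2 scale. The difference between these falls was 1.39 (SE 0.66, 95% interval 0.02 to 2.76), with an unadjusted p of 0.0476 in the same model, and was not called (adjusted p = 0.196). At chronic 72 h Il11 was called higher than in healthy HSCs, at 2.22 (SE 0.65, adjusted p = 0.0165), but not without healthy replicate 3 (1.80, adjusted p = 0.0548) or chronic 72 h replicate 3 (1.82, adjusted p = 0.0746), and it was 3.07 without healthy replicate 1. At acute 7 d and chronic 14 d it was not called, with 1.73 (adjusted p = 0.0582) and 1.58 (adjusted p = 0.177). Without healthy replicate 1 these were 2.58, which was called (adjusted p = 0.021), and 2.42, which was not.

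Per kb of exon Il11 rose from the lowest of the 10 genes in healthy HSCs to the third at acute 24 h, at 62.7 CPM per kb behind Socs3 (880) and Il6st (107). That moved it from percentile 6.22 to percentile 94.8 of all genes. The acute 24 h libraries had macrophage markers at 154 to 219 CPM in sum, within the healthy range of 156 to 664 CPM but for 1 library just below it. Their 12 mesothelial and portal fibroblast markers summed to 29.4 to 61.5 CPM, below the healthy 61.7 to 86.4 CPM. The 8 neutrophil markers summed to 4.3 to 18.7 CPM there and to 0.39 to 2.17 CPM in healthy libraries. Of the 6 that passed the filter 4 were called higher (9.41% of all genes), while Ly6g was at 0. The part of neutrophils in the level of Il11 was not tested.

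Lif encodes leukemia inhibitory factor, which signals through LIFR and gp130 (ENSMUSG00000034394, chr11:4257557-4272514, plus strand). Healthy libraries held 1.27, 1.17, 2.27 and 0 CPM, acute 24 h libraries 22.6, 20.0 and 42.3 CPM and chronic 24 h libraries 7.19, 24.5, 25.7 and 26.3 CPM. All libraries taken 24 h after CCl4 were above all healthy ones. At acute 72 h Lif was spread widely, with 12.1, 40.8, 4.63 and 7.35 CPM, and by 7 d it stood at 1.21, 2.13, 1.93 and 3.9 CPM. It was at 5.46, 1.57, 5.05 and 4.23 CPM at chronic 72 h and 3.91, 1.71, 4.32 and 2.79 CPM at chronic 14 d, where the ranges overlapped that of healthy HSCs.

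Against healthy HSCs Lif rose on the log2 scale by 4.57 at acute 24 h (SE 0.77, adjusted p = 7.64e-05), 3.77 at acute 72 h (SE 0.73, adjusted p = 0.000654) and 4.14 at chronic 24 h (SE 0.74, adjusted p = 0.000162). The acute 72 h value rested in part on replicate 2, without which it was 2.75. The acute and chronic 24 h levels did not differ by the test, at -0.43 (95% interval -1.82 to 0.96, adjusted p = 0.695). In the chronic course Lif fell by 2.35 from 24 h to 72 h (SE 0.67, adjusted p = 0.0185) and by 2.71 to 14 d (SE 0.69, adjusted p = 0.00621). The former call was lost without chronic 24 h replicate 4 (-2.18, adjusted p = 0.0528), without chronic 72 h replicate 2 (-2.06, adjusted p = 0.0669) and with higher-depth libraries only (-2.46, adjusted p = 0.147). From acute 24 h to 72 h the change of -0.80 was not called (adjusted p = 0.433), and without acute 72 h replicate 2 it was -1.82 (adjusted p = 0.047).

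Il6 encodes interleukin 6, the founding member of the family (ENSMUSG00000025746, chr5:30013114-30019981, plus strand). Unlike Il11 and Lif it stayed low after a single injection. It measured 4.71, 3.8, 2.02 and 5.45 CPM in healthy HSCs, 2.76, 6.5 and 5.26 CPM at acute 24 h, 3.19, 3.81, 7.39 and 6.11 CPM at 72 h and 4.68, 2.54, 7.4 and 10.0 CPM at 7 d. These 4 groups overlapped. After repeated injections it measured 8.83, 16.7, 33.8 and 24.0 CPM at 24 h, 9.45, 11.3, 12.9 and 17.7 CPM at 72 h and 4.72, 5.91, 6.37 and 3.67 CPM at 14 d. Every chronic 24 h and 72 h library was above every healthy one, and the 14 d levels overlapped the healthy range.

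Il6 was higher than in healthy HSCs at chronic 24 h by 2.38 on the log2 scale (SE 0.43, adjusted p = 0.00017), which is 5.21-fold with a 95% interval of 2.81 to 9.65. At chronic 72 h it was higher by 1.68 (SE 0.42, adjusted p = 0.00625). The acute log2 fold changes were 0.28 (95% interval -0.66 to 1.21), 0.36 (-0.51 to 1.23) and 0.63 (-0.24 to 1.49) at 24 h, 72 h and 7 d. The direct test of chronic against acute 24 h gave 2.11 (SE 0.47, adjusted p = 0.00243), in which 2 of 10 genes were called, Il6 higher (10.9% of all genes) and Il11 lower (3.05%). The early chronic and early acute libraries thus differed in opposite directions for these ligands. From chronic 24 h to 14 d Il6 fell by 2.01 on the log2 scale (SE 0.43, adjusted p = 0.00146).

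In both chronic groups of mixed depth the lower-depth libraries, replicates 1 and 2, held less Il6 than replicates 3 and 4. With depth class as a term in the model the log2 fold change against healthy was 2.71 at chronic 24 h (adjusted p = 3.63e-05) and 2.09 at chronic 72 h (adjusted p = 0.00135). Macrophage markers summed to 553 to 3690 CPM at chronic 24 h, which overlapped the healthy 156 to 664 CPM in replicate 3 alone. Mesothelial and portal fibroblast markers summed to 237 to 399 CPM there, above the healthy 61.7 to 86.4 CPM. Chronic 24 h replicate 3 had the most Il6 and the lowest macrophage sum of its group. In replicates 1 to 4 of chronic 24 h the mesothelial and portal fibroblast sum was 237, 293, 358 and 399 CPM. Their Il6 was 8.83, 16.7, 33.8 and 24.0 CPM. At chronic 72 h this sum was 96.8, 191, 211 and 244 CPM, in the same order as Il6 (9.45, 11.3, 12.9 and 17.7 CPM). The part of other cells in the rise of Il6 was not tested.

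**Figure D2:**
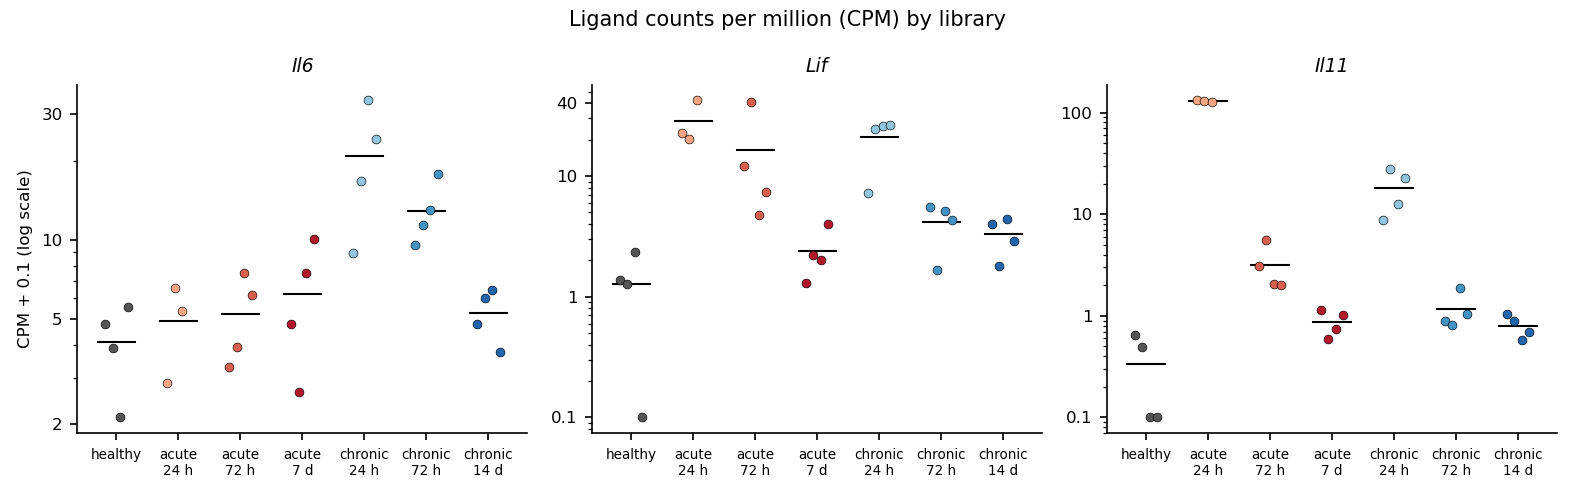
CPM of Il6, Lif and Il11 (vertical axis, log scale after adding 0.1 CPM so that libraries at 0 can be drawn) in each library of the 7 groups (horizontal axis), where points are libraries and lines are group means. The 3 acute 24 h libraries of Il11 sit at 128 to 132 CPM above all others, whereas Il6 is highest in the chronic 24 h group, at 8.83 to 33.8 CPM.

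Of the other ligands of the family, 5 of 9 passed the filter. Osm, which encodes oncostatin M and is known as a product of macrophages and neutrophils, was called higher in 5 of the 6 comparisons with healthy HSCs, the exception being acute 24 h, where it had 0.529 CPM ± 0.24 (SD, n = 3) against 0.492 ± 0.579 (n = 4) in healthy HSCs. It reached 19.0 CPM ± 3.5 at acute 7 d (n = 4, log2 fold change 5.21, SE 0.62, adjusted p = 2.35e-06) and 12.4 CPM ± 5.23 at chronic 24 h (n = 4, 4.59, SE 0.61, adjusted p = 3.89e-06). Acute 7 d was also the group with the highest macrophage marker sum, and the share of other cells in Osm was not tested. The receptor chain gene Osmr was already called higher at acute 24 h.

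Clcf1, whose product signals through the CNTF receptor, was higher at acute 24 h by 2.53 (SE 0.40, adjusted p = 3.14e-05), with 22.8 CPM ± 10.1 (n = 3) against 3.93 ± 1.49 in healthy HSCs (n = 4). At chronic 24 h it was higher by 1.29 (SE 0.37, adjusted p = 0.0104), and not with the higher-depth libraries alone (0.97, adjusted p = 0.172). Ctf1, the gene of cardiotrophin 1, was higher at acute 7 d by 1.15 (SE 0.31, adjusted p = 0.00807). Cntf, the gene of ciliary neurotrophic factor, had no count in any library. In the same family Cntfr, the CNTF receptor chain, was higher than in healthy HSCs in 5 of 6 comparisons, with 3.43 CPM ± 1.21 in healthy (n = 4), 13.6 ± 4.06 at acute 24 h (n = 3) and 18.4 ± 2.96 at chronic 72 h (n = 4). Of these 5 calls 3 were lost under an alternative, at chronic 14 d with depth class as a term (1.36, adjusted p = 0.166), at chronic 24 h with higher-depth libraries only (1.06, adjusted p = 0.129) and at acute 7 d with only the groups compared (1.52, adjusted p = 0.0822).

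Among the receptor chains, Il6ra and Osmr had the lowest levels per kb in healthy HSCs and were higher after CCl4. Il6ra encodes the IL-6 binding chain (ENSMUSG00000027947, chr3:89864059-89913196, minus strand). Its healthy levels were 3.8, 5.16, 5.81 and 4.85 CPM. Levels after 1 injection were 22.4, 14.2 and 12.5 CPM at 24 h, 12.5, 12.3, 11.2 and 8.04 CPM at 72 h and 19.2, 26.6, 27.9 and 23.0 CPM at 7 d. The chronic libraries held 35.6, 19.1, 14.7 and 20.2 CPM at 24 h, 24.6, 29.7, 14.3 and 19.7 CPM at 72 h and 14.2, 21.7, 13.0 and 7.19 CPM at 14 d. Not one of the 23 libraries after CCl4 overlapped the 4 healthy ones.

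Il6ra was the only gene of the 10 called higher in all 6 comparisons with healthy HSCs. The log2 fold change was 1.74 at acute 24 h (SE 0.32, adjusted p = 0.00021), 1.16 at acute 72 h (SE 0.30, adjusted p = 0.00768) and 2.30 at acute 7 d (SE 0.31, adjusted p = 1.15e-05). It was 2.18 at chronic 24 h, 2.16 at chronic 72 h and 1.51 at chronic 14 d, with adjusted p values of 9.55e-06, 2.56e-05 and 0.0029. At chronic 14 d, where every library was of lower depth and every healthy one was not, the value with depth class as a term was 0.85 (adjusted p = 0.209).

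Il6ra is also made by macrophages and hepatocytes, so the marker sums are given beside it. At acute 24 h the macrophage sum of 154 to 219 CPM was not above the healthy range, the hepatocyte sum of 66.5 to 354 CPM was below the healthy 650 to 4460 CPM, and Il6ra was higher. Neutrophil markers summed to 4.3 to 18.7 CPM there and to 0.39 to 2.17 CPM in healthy libraries. The part of any of these cells in that level of Il6ra was not tested. At acute 7 d and chronic 24 h the macrophage sums were 4190 to 10800 and 553 to 3690 CPM. At chronic 72 h and chronic 14 d they were 1030 to 2860 and 822 to 2090 CPM. All but chronic 24 h replicate 3, at 553 CPM, were above the healthy range, and Il6ra was higher in these groups. The part of macrophages in those levels of Il6ra was not tested. Of the 12 macrophage markers 1 was called higher (9.41% of all genes) and 2 lower (12.5%) at acute 24 h. Higher calls were 2 at acute 72 h (8.23%) and 10 at acute 7 d (9.23%). In the chronic course 8 were higher at 24 h (11.2%), 8 at 72 h (7.88%) and 4 at 14 d (4.55%). Marco was at 0 in healthy libraries. Of the exon bases of Il6ra, 242 (2.8%) are shared with the antisense gene Gm42809. The strand setting of the counts is not stated, so reads there cannot be assigned with certainty.

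**Figure D3:**
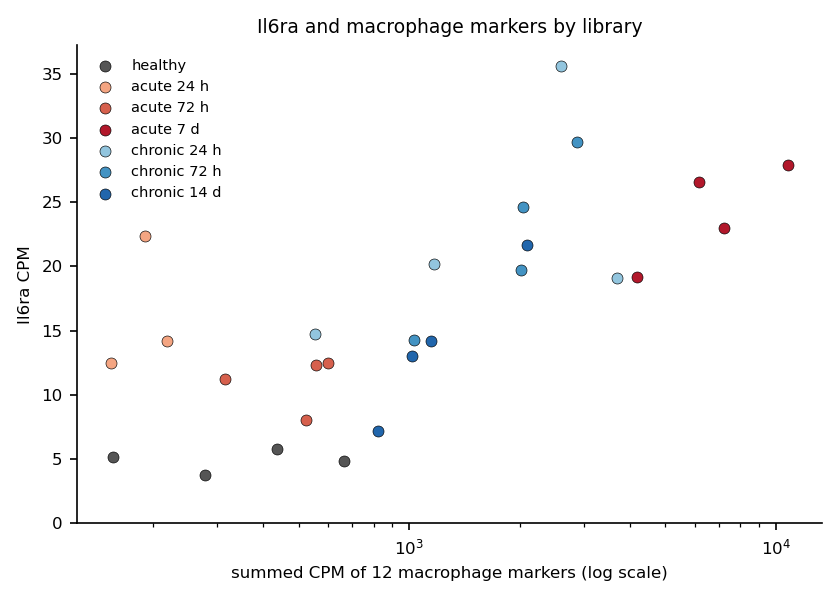
Il6ra in CPM (vertical axis) against the summed CPM of 12 macrophage markers (horizontal axis, log scale), with 1 point per library coloured by group. The 3 acute 24 h libraries lie at a macrophage sum of 154 to 219 CPM with 12.5 to 22.4 CPM of Il6ra, while healthy libraries at 156 to 664 CPM have 3.8 to 5.81 CPM.

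Osmr encodes the chain through which oncostatin M signals with gp130 (ENSMUSG00000022146, chr15:6813577-6874969, minus strand). It measured 26.0, 64.4, 37.2 and 48.0 CPM in healthy HSCs, and 135, 132 and 151 CPM at acute 24 h, 131, 148, 95.8 and 89.0 CPM at 72 h and 121, 156, 73.8 and 80.6 CPM at 7 d. Chronic levels were 120, 144, 204 and 195 CPM at 24 h, 87.1, 112, 128 and 87.5 CPM at 72 h and 63.9, 52.0, 90.2 and 76.7 CPM at 14 d. The 14 d group alone overlapped the healthy one.

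The log2 fold change of Osmr against healthy was 1.67 at acute 24 h (SE 0.29, adjusted p = 8.7e-05), 1.40 at acute 72 h (SE 0.27, adjusted p = 0.00058) and 1.30 at acute 7 d (SE 0.27, adjusted p = 0.00111). It was 1.92 at chronic 24 h (adjusted p = 9.83e-06) and 1.24 at chronic 72 h (adjusted p = 0.00195), and 0.69 at chronic 14 d, which was not called (adjusted p = 0.113). From chronic 24 h to 14 d Osmr fell by 1.23 (SE 0.27, adjusted p = 0.00184). No neighbouring groups in the order of its means differed by the test.

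Il6st, the gp130 gene (ENSMUSG00000021756, chr13:112464070-112510086, plus strand), was not called against healthy HSCs or in any of the other comparisons drawn in the plot of fold changes. Its group means ran from 1390 CPM ± 121 at acute 72 h to 594 ± 188 at chronic 72 h (n = 4 each), around 886 ± 139 in healthy HSCs (n = 4). Chronic 72 h against acute 72 h gave -1.23 on the log2 scale (SE 0.24, adjusted p = 0.00134). These groups had the lowest and the highest mean, and their comparison was not among those drawn in the plot. The p was adjusted over genes and not for this choice of pair, so no call was drawn from it. The chronic 72 h libraries held 634, 486, 841 and 417 CPM and the chronic 24 h libraries 891, 792, 1190 and 1190 CPM. That step of -0.77 (SE 0.24, adjusted p = 0.0311) passed the p threshold but stayed under 2-fold.

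Lifr encodes the chain shared by LIF and oncostatin M receptors (ENSMUSG00000054263, chr15:7090614-7197489, plus strand). Healthy libraries had 120, 474, 449 and 527 CPM and acute 24 h libraries 73.2, 109 and 126 CPM. The log2 fold change of -1.93 (SE 0.78, adjusted p = 0.0592) missed the threshold, and without healthy replicate 1, the low one, it was -2.23 and called (adjusted p = 0.0329). Lifr varied within groups more than most genes. Its within-group SD on the log2 scale was 1.04, and 97.3% of 703 genes of like level had a smaller one, with a median of 0.29. At chronic 14 d, for instance, it measured 92.8, 70.2, 407 and 106 CPM, and at acute 72 h 521, 153, 98.6 and 308 CPM. Hepatocytes are known to make Lifr, and the hepatocyte sum was 66.5 to 354 CPM at acute 24 h and 650 to 4460 CPM in healthy libraries. Among healthy libraries replicate 1 had the lowest sum (650 CPM) and the lowest Lifr (120 CPM), and replicate 4 the highest of both (4460 and 527 CPM). In chronic 14 d replicate 3, the library with 407 CPM of Lifr, that sum was 2380 CPM, and in replicate 2, with 70.2 CPM, it was 9820 CPM. The part of hepatocytes in the level of Lifr was not tested.

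Il11ra1, the IL-11 binding chain (ENSMUSG00000073889, chr4:41699989-41769474, plus strand), was the steadiest of the 10 genes between group means, from 105 CPM ± 11.1 at acute 72 h to 67.2 ± 36.3 at chronic 14 d (n = 4 each), with 95.2 ± 17.3 in healthy HSCs (n = 4). At 24 h, when Il11 was high, its log2 fold change was -0.08 in the acute (95% interval -0.80 to 0.63) and -0.08 in the chronic course (95% interval -0.74 to 0.58). Reads may be shared with its close relative Il11ra2, so this level is uncertain. The RNA of the ligand thus changed by a log2 fold of 9.10 while the interval for its receptor stayed within a 2-fold change.

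**Figure D4:**
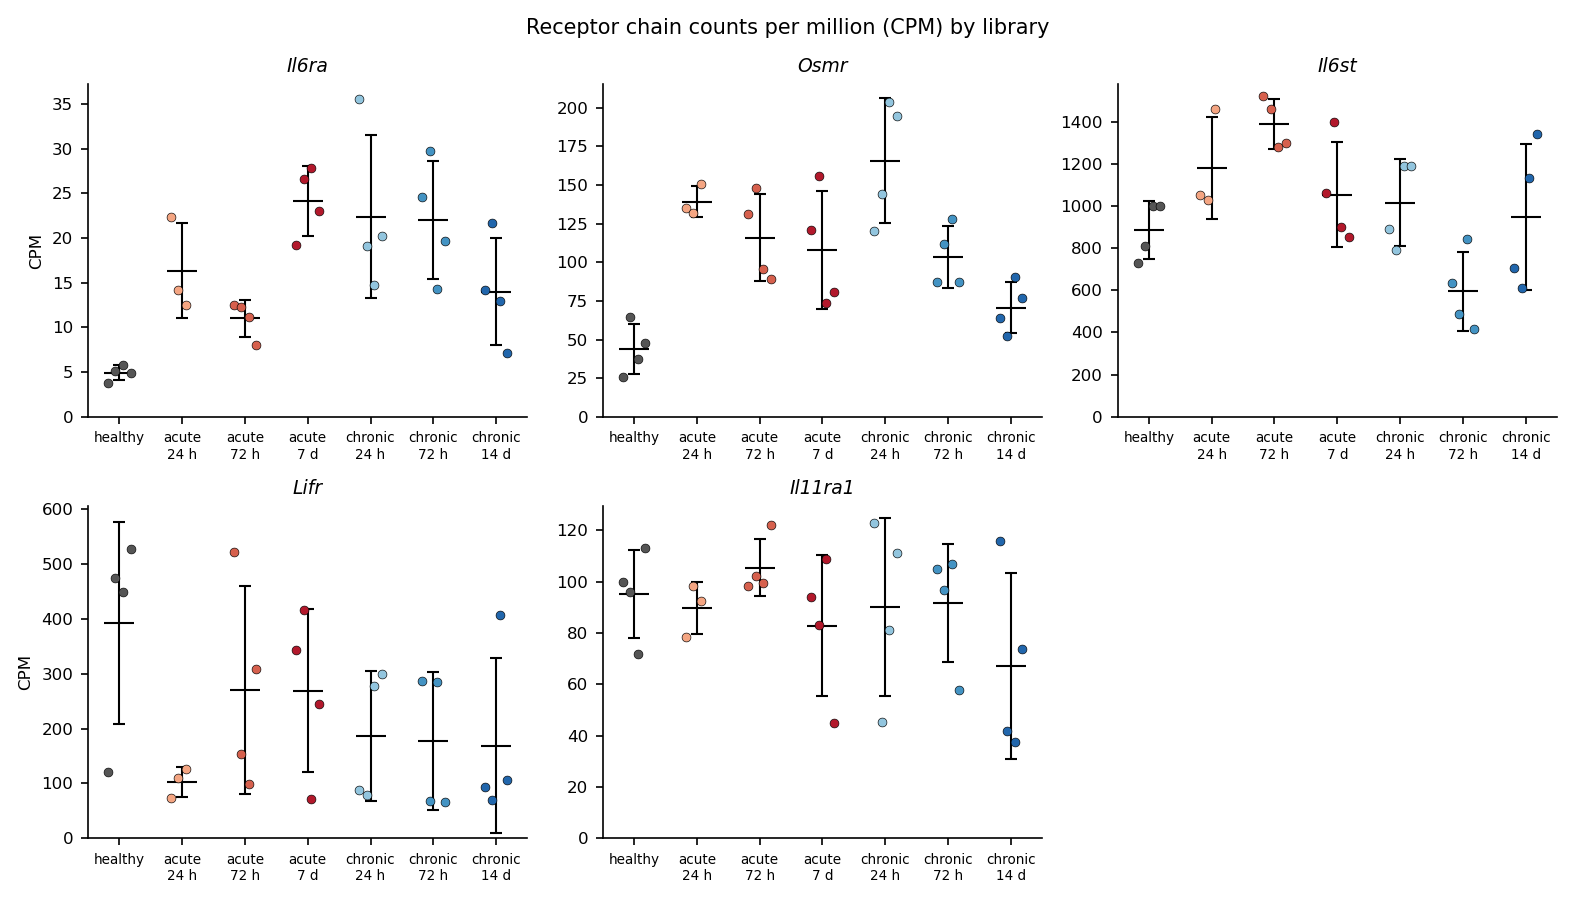
CPM (vertical axes, starting at 0) of the receptor chain genes Il6ra, Osmr, Il6st, Lifr and Il11ra1 in each library of the 7 groups (horizontal axes), where points are libraries and crossbars with whiskers are means ± SD. All CCl4 libraries of Il6ra are above the healthy 3.8 to 5.81 CPM, while the Lifr groups spread from 66.9 to 527 CPM.

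Stat3 encodes the transcription factor that gp130 activates (ENSMUSG00000004040, chr11:100885098-100939540, minus strand). STAT3 is controlled by phosphorylation, which RNA does not show. Stat3 measured 76.0, 87.5, 87.4 and 43.8 CPM in healthy HSCs and 143, 140 and 126 CPM at acute 24 h, without overlap, but the difference of 0.89 was not called (SE 0.49, adjusted p = 0.171). The chronic groups were uneven, with 320, 94.3, 61.7 and 85.7 CPM at 24 h, 199, 192, 204 and 45.0 CPM at 72 h and 82.0, 178, 180 and 58.7 CPM at 14 d. Its within-group SD of 0.70 on the log2 scale exceeded that of 91.3% of 1430 genes of like level. At chronic 72 h the log2 fold change against healthy was 1.12 (adjusted p = 0.0896), and without replicate 4 of that group it was 1.43 and called (adjusted p = 0.0251).

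Socs3 encodes the suppressor that shuts gp130 signalling off (ENSMUSG00000053113, chr11:117966079-117970047, minus strand). It was not called higher than in healthy HSCs in any group, also not in those in which ligands were up. Healthy libraries held 3320, 3940, 3590 and 3230 CPM, above every other library of the series. Acute libraries had 2470, 3040 and 2120 CPM at 24 h, 2390, 1340, 2150 and 2180 CPM at 72 h and 1800, 1220, 2230 and 2470 CPM at 7 d. The chronic course went from 1800, 1540, 1890 and 1630 CPM at 24 h to 3000, 2850, 2860 and 2460 CPM at 72 h and 2910, 3010, 2290 and 1880 CPM at 14 d, so that the 24 h and 72 h groups did not overlap.

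At chronic 24 h Socs3 was called lower than in healthy HSCs, at -1.04 on the log2 scale (SE 0.20, adjusted p = 0.000379). This lay close to the 2-fold limit and was -0.98 without healthy replicate 2 and -0.99 without chronic 24 h replicate 2 or with higher-depth libraries only. At acute 72 h and 7 d the changes of -0.80 (adjusted p = 0.0055) and -0.87 (adjusted p = 0.00294) passed the p threshold but not 2-fold, and without acute 7 d replicate 4 the latter was -1.01. At acute 24 h the change was -0.47 (adjusted p = 0.104).

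The steps from 24 h to 72 h within the courses address how the response subsides. In the acute course 1 of 10 genes was called lower, Il11 (3.76% of all genes), and 0 higher (11.2%). In the chronic course 2 were called lower, Il11 and Lif (3.65%), and 0 higher (4.72%), while 4 passed the p threshold alone (15.6%). By 14 d, against chronic 24 h, 4 were lower, Il11, Lif, Il6 and Osmr (6.11%), and 0 higher (6.65%). Scaling by library size alone raised the share of all called genes that were higher from 56.4% to 67.1% in the chronic 72 h step, from 52.1% to 67.1% in the 14 d step and from 79.6% to 91.1% at chronic 14 d against healthy.

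A test of the difference between the chronic and acute 24 h to 72 h steps called Socs3 alone among the 10 genes, as higher (3.20% of all genes tested), with 0 lower (7.64%). Socs3 rose by 0.70 in the chronic step (adjusted p = 0.0184), while its acute step was -0.34 (adjusted p = 0.287). The difference was 1.04 (SE 0.29, 95% interval 0.43 to 1.65, adjusted p = 0.0232). It was 0.89 without acute 24 h replicate 2 (adjusted p = 0.09) and 1.01 with higher-depth libraries only (adjusted p = 0.125), both no longer called. For Il6st the difference was -1.01 (adjusted p = 0.0725), and without chronic 72 h replicate 3 it was -1.22 and called (adjusted p = 0.0263).

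Socs3 is also an immediate early gene that cells induce when they are handled, so the sum of 12 immediate early genes such as Fos and Jun is given beside it. That sum was 38500 to 49200 CPM in healthy libraries. After 1 injection it was 33600 to 48100 CPM at 24 h, 31600 to 37000 CPM at 72 h and 20600 to 33700 CPM at 7 d. In the chronic course it was 36800 to 39000 CPM at 24 h, 34000 to 40900 CPM at 72 h and 27600 to 37800 CPM at 14 d. The acute 72 h, acute 7 d and chronic 14 d ranges lay below the healthy one. At chronic 24 h against healthy 2 of these 12 genes were called higher (11.2% of all genes) and 0 lower (8.11%), and at acute 7 d 1 was higher (9.23%) and 4 lower (5.64%). Their part in the level of Socs3 was not tested.

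**Figure D5:**
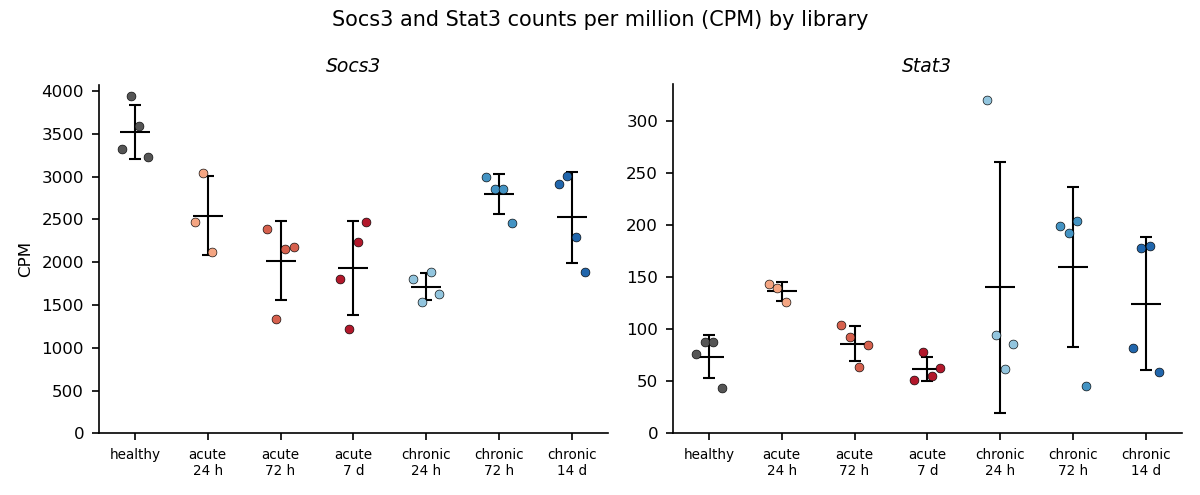
CPM (vertical axes, starting at 0) of Socs3 and Stat3 in each library of the 7 groups (horizontal axes), with points for libraries and crossbars with whiskers for means ± SD. The 4 healthy Socs3 libraries, at 3230 to 3940 CPM, are above all others, and the whiskers of Stat3 at chronic 24 h are wide because of 1 library at 320 CPM.

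Among JAK kinases, other STATs and inhibitors, 23 of 24 genes passed the filter. Against healthy HSCs 2 of the 23 were higher (9.41% of all genes) and 1 lower (12.5%) at acute 24 h, 0 higher (8.23%) and 1 lower (4.33%) at acute 72 h and 1 higher (9.23%) and 1 lower (5.64%) at acute 7 d. In the chronic course 2 were higher (11.2% of all genes) and 2 lower (8.11%) at 24 h, 2 higher (7.88%) and 0 lower (4.20%) at 72 h and 1 higher (4.55%) and 0 lower (1.17%) at 14 d. Socs1, the nearest relative of Socs3 in function, fell with it at chronic 24 h by 1.45 (SE 0.29, adjusted p = 0.000538), from 116 CPM ± 32.2 to 42.8 ± 8.42 (n = 4 each), and rose by 1.12 to chronic 72 h (SE 0.29, adjusted p = 0.00987). The latter call was lost with higher-depth libraries only (1.22, adjusted p = 0.074). Socs5 went the other way, from 45.4 CPM ± 11.6 in healthy to 159 ± 77.4 at chronic 24 h (n = 4 each, log2 fold change 1.81, SE 0.31, adjusted p = 0.0001). Ptpn2, a phosphatase that acts on JAKs and STATs, was higher at acute 24 h by 1.46 (SE 0.26, adjusted p = 0.000134). The kinase gene Jak1 was at 327 CPM ± 38.5 in healthy HSCs (n = 4) and 252 ± 11.4 at acute 24 h (n = 3).

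All 26 genes of a list of reported STAT3 targets passed the filter. The list was chosen with earlier results of these data known, so its counts are not independent of the data. Of these 26, 12 were higher than in healthy HSCs (9.41% of all genes) and 0 lower (12.5%) at acute 24 h, 5 higher (8.23%) and 0 lower (4.33%) at acute 72 h and 9 higher (9.23%) and 1 lower (5.64%) at acute 7 d. After repeated injections 10 were higher (11.2% of all genes) and 1 lower (8.11%) at 24 h, 8 higher (7.88%) and 0 lower (4.20%) at 72 h and 5 higher (4.55%) and 0 lower (1.17%) at 14 d. Of 6 neutrophil markers tested, 4 were higher at acute 24 h, 3 at acute 72 h and 5 in each of the other comparisons with healthy HSCs, and macrophage markers were called higher as given for Il6ra. The part of these cells in the level of the targets was not tested. The median log2 fold change of the 26 targets was 1.08 at acute 24 h and 0.61 at chronic 24 h, and that of all genes -0.12 and -0.03. Serpina3n, an acute phase protease inhibitor, had 34.3 CPM ± 34.7 in healthy (n = 4), 1690 ± 195 at acute 24 h (n = 3) and 1250 ± 247 at chronic 24 h (n = 4). Timp1, an inhibitor of matrix metalloproteinases, had 0.632 CPM ± 0.73 in healthy (n = 4), 95.4 ± 6.01 at acute 24 h (n = 3) and 148 ± 18.5 at chronic 24 h (n = 4). Both were called at each of these times, as were Lcn2 and Saa3, further acute phase genes.

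Other targets moved against that direction. Cebpd, a transcription factor of the acute phase response, was lower at chronic 24 h by -1.23 (SE 0.23, adjusted p = 0.000295), at 840 CPM ± 149 against 1970 ± 315 in healthy HSCs (n = 4 each), and rose again by 1.09 to chronic 72 h (SE 0.23, adjusted p = 0.00234). Like Socs3, it was called in the test between the chronic and acute steps, at 1.70 (SE 0.34, adjusted p = 0.00191). Ccnd1, the cyclin D1 gene, was lower at acute 7 d by -1.46 (SE 0.27, adjusted p = 0.000364). The genes of this list have inputs besides STAT3, and STAT3 activity was not measured here.

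Across the 7 groups the genes with the pattern most like that of a family member were sought among 10292 well expressed genes by the root mean square difference of standardised group means, where 0 is an identical pattern. Osmr was followed most closely, by Prkar2b (0.112), Rgs19 (0.167) and Slc20a2 (0.168). The nearest to Il6ra were Oasl1 (0.236), Sestd1 (0.261) and Rgs2 (0.269), and to Il6 Soat1 (0.302), Sytl2 (0.307) and Tmem150a (0.311). These likenesses are descriptions over 7 group means.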

How the data were processed

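RNA of 27 libraries of sorted HSCs in 7 groups was sequenced with 75 bp single-end reads. Per the labels and the study's methods, the authors used FastQC, STAR and StringTie on GRCm38.p6. The deposited values are raw counts per Ensembl gene, without normalization. Tool versions, strand, annotation release and the step from assembly to counts are not given in the sources used here. All 27 columns were matched to libraries by title.

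Symbols and positions came from GENCODE M21 (53274 of 53379 IDs). Counts were filtered by filterByExpr by group, scaled by TMM and fitted in 1 quasi-likelihood model with robust estimates (R 4.3.3, edgeR 4.0.16). Adjusted p values cover all 18758 genes tested, and the procedure was tested on simulated counts. Confidence intervals are at 95%. The 10 comparisons and the test of the difference of steps, called at an adjusted p below 0.05 alone, follow the groups of the labels.

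The members, the gene lists and the tests were chosen with earlier results of these data known. Named were the 10 members, the pathway lists with at most 4 called genes per list and direction, and the 5 genes of most similar pattern. Jak1 and Cntf were named after their values had been seen, and marker lists are given as sums. Depth (6314801 to 13052838 counts) sets the precision. A CPM of 1 is about 6 to 13 counts. Alternatives were DESeq2 1.42.0 and its size factors, library size alone, no filter, no fold minimum, the replicate block, depth class, higher-depth libraries only, only the groups compared and each library left out. Their extension to the pathway lists was chosen after seeing the data. Tables and plots came from Python 3.11.15 (pandas 2.3.3, matplotlib 3.10.9). All 27 libraries entered the model. Some genes of the pathway lists are counted in the totals but not reported here by name.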

Additional observations from a re-analysis of the deposited data

Results flagged for a closer look

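In 5 of the 60 groups of 4 libraries (8.33%) examined over the 10 genes 1 library stood apart from the other 3, where chance gives about 1 in 20. Lifr measured 407 CPM in chronic 14 d replicate 3 and 70.2 to 106 CPM in the others. Lif measured 7.19 CPM in chronic 24 h replicate 1 and 24.5 to 26.3 CPM in the others. Il11ra1 measured 122 CPM in acute 72 h replicate 4 and 98.2 to 102 CPM in the others. Stat3 measured 320 CPM in chronic 24 h replicate 1, with 61.7 to 94.3 CPM in the others, and 45.0 CPM in chronic 72 h replicate 4, with 192 to 204 CPM in the others. For Socs3 the steps from 24 h to 72 h differed between the chronic and the acute course, by 1.04 on the log2 scale (edgeR, adjusted p = 0.0232).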

How the results depend on the processing

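Of the 31 calls among 110 pairs of gene and comparison, 4 were lost under at least 1 processing alternative and 4 when a library was left out, and no called direction was reversed in any of them. The number of the 10 genes called in the chronic 24 h to 72 h step was 4 with no fold minimum and 1 with higher-depth libraries only, against 2, and 1 to 2 when a library was left out. At chronic 14 d against healthy it was 0 with depth class as a term, against 1. In the test of the difference of steps it was 0 with higher-depth libraries only and 2 with DESeq2, which added Il6st, against 1, and 0 to 2 when a library was left out. In the acute 24 h to 72 h step it was 1 to 2 when a library was left out. The cause of these changes was not tested. Calls gained were Lifr at acute 24 h against healthy with only the groups compared (-1.87, adjusted p = 0.0241), higher-depth libraries only (-1.89) and DESeq2 (-1.97), Il11 at acute 7 d with library size alone (1.83) and DESeq2 (1.78) or without healthy replicate 1 (2.58), and Lif at chronic 72 h with DESeq2 (1.79). Il11 did not pass the filter in fits of acute 7 d, chronic 72 h or chronic 14 d with healthy libraries alone, so these gave no value. With library size alone the all-gene median moved by up to 0.18 (log2), at chronic 14 d against healthy. Over all genes, only the groups compared gave 622 calls at chronic 14 d, against 1073. With the replicate number as a block, 4, 4 and 2 of the 10 genes were called at acute 24 h, 72 h and 7 d and 6, 4 and 1 at chronic 24 h, 72 h and 14 d against healthy, the same numbers as without it, and no call of the 10 changed. Same-numbered libraries had deviations that correlated between -0.172 and 0.19 (median 0.0135, 78 pairs), and those with other numbers had a median of -0.0031. Of 27 libraries 10 correlated best with their own number. In both chronic groups of mixed depth, replicates 1 and 2 were the lower-depth libraries. Correlations over all genes cannot decide whether the numbers pair the samples, and the labels do not say. Healthy libraries held 0 to 6 counts of Il11 and 0 to 27 of Lif, which limits the precision of every fold against them.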
